A study of Drosophila melanogaster with 4 samples.

Results

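Male flies kept in formaldehyde vapour were set directly against male flies kept in benzene vapour, with 1 whole-genome expression array for each. Of 8150 genes detected in this comparison, 82 differed by at least 2-fold, 67 of them higher and 15 lower on the formaldehyde array. They were chosen by that size after a filter on dim genes, from 1 probe set per gene, the one brightest on average over the 4 arrays of the series. The series holds 4 arrays in all, of formaldehyde, benzene, toluene and unexposed control males of wild-type Canton-S Drosophila melanogaster. All were adults 1 to 2 days old, and the 3 vapour groups spent 24 h on standard food in vials with a mesh lid, placed in a bottle with the vapour, while the control flies were left unexposed. The labels state no vapour concentration, so the exposures are matched for time and not known to be matched for dose. RNA was prepared from flies without dissection being mentioned, their number per array is not stated either, and fewer cells of a type cannot be told apart from less RNA per cell.

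Benzene is an aromatic ring hydrocarbon and formaldehyde is the simplest aldehyde, a reactive gas that cross-links proteins and DNA. Cells, which also make formaldehyde themselves, dispose of it through formaldehyde dehydrogenase, an enzyme flies share with most animals. Many of the genes described below act in immunity or in the lining of the gut. Drosophila has 2 main NF-kB immune pathways. The Imd pathway is switched on by peptidoglycan of the type found in most Gram-negative bacteria and induces antibacterial peptides such as the diptericins and cecropins. The Toll pathway, which responds to fungi and to many Gram-positive bacteria, induces drosomycin and the bomanins. The midgut is sealed by smooth septate junctions and shielded by the peritrophic matrix, a sleeve of chitin and chitin-binding proteins.

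Values are log2 probe set values as the authors deposited them, and a difference is formaldehyde minus benzene, so that 1 unit is 2-fold. A gene counted as detected when the higher of its 2 values reached the median of that array (6.45 for formaldehyde and 6.42 for benzene). With 1 array for each group there is no replicate, so there is no spread between replicates to set a difference against, and no p-value is given. A difference between arrays also holds that between the flies, the RNA preparations and the hybridisations, and these cannot be told apart from the exposure.

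The share of detected genes past 2-fold was 0.822% in the higher and 0.184% in the lower direction, 1.01% together. Most genes differed little: 96.9% lay within 0.5 log2 units of each other, the median difference was 0.02 and its robust SD across genes was 0.14. Of all detected genes 54.7% were above 0, the share to set beside the counts above 0 given below. At 4-fold, 15 genes were higher and 4 lower, and at 8-fold 6 were higher and 2 lower. The nearest genes inside the 2-fold line were CG5011 (1.00), CG34136 (1.02) and Inx7 (1.02), and the nearest outside it were CG34054 (0.98), the metallothionein gene MtnD (0.98) and CG17930 (0.97). On the lower side Jon25Bii (-1.03), epsilonTry (-1.06) and AANATL4 (-1.07) stood just inside, and LManVI (-0.96), Ect3 (-0.92) and Cyp313a3 (-0.85) just outside.

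**Figure D1:**
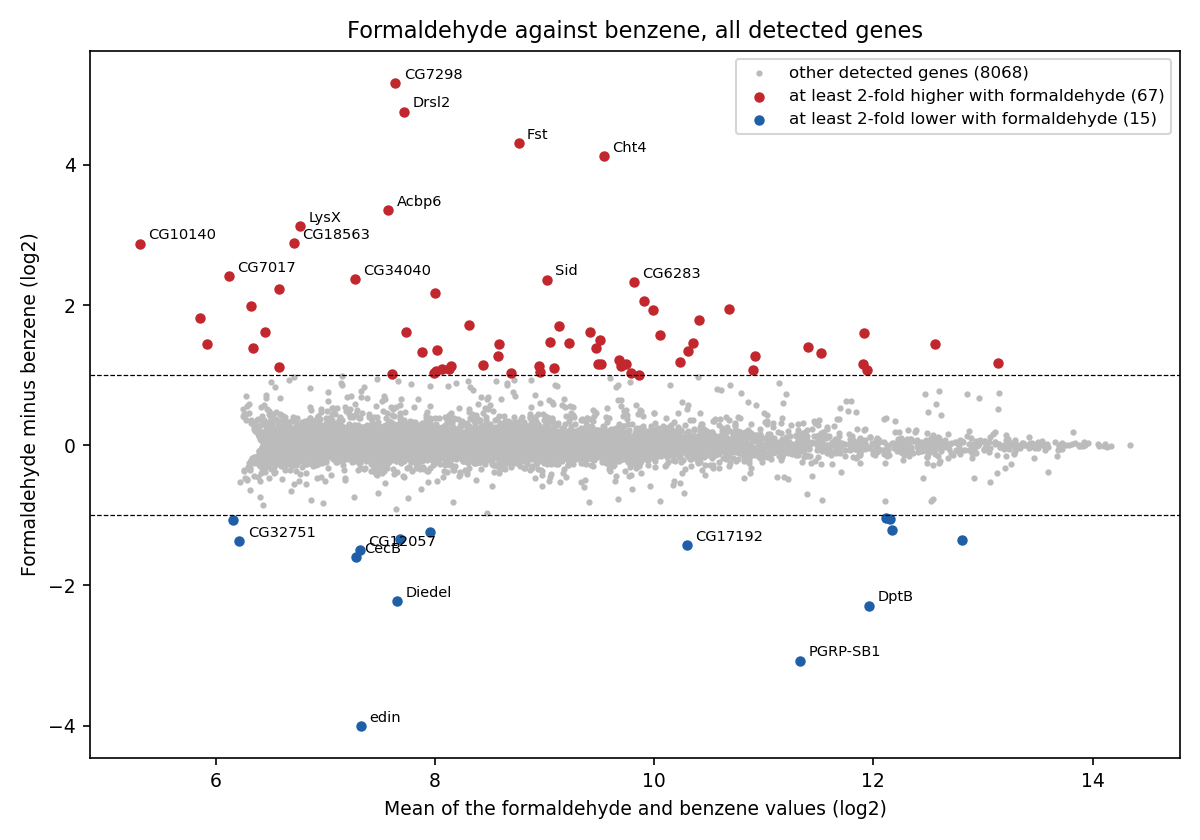
Each point is 1 detected gene, with the mean of its formaldehyde and benzene values on the horizontal axis and the difference, formaldehyde minus benzene, on the vertical axis, both in log2 units. Red points are the 67 genes at least 2-fold higher and blue points the 15 at least 2-fold lower with formaldehyde, dashed lines mark 2-fold, and both sets span dim and bright genes.

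The arrays were alike in overall scale, and markers of male flies were in place. Testis genes were present at up to 12.98 with formaldehyde and 13.04 with benzene, and the yolk protein gene Yp1, a female product, stood at 3.62 and 3.74, below the background of each array (4.64 and 4.84). Another yolk protein gene, Yp3, was detected, with a difference of 0.05. Poly-A spikes added to the RNA differed by a median of -0.03 and hybridisation spikes by -0.14. The array's control probe sets gave median differences of -0.07 for GAPDH, -0.04 for eIF-4a, 0.82 for actin and 0.38 for 18S ribosomal RNA. The excess of the 3' over the 5' end of actin, a sign of RNA integrity, was 0.83 with formaldehyde and 1.09 with benzene, and for GAPDH it was 0.95 and 0.93. Whether these shifts bear on any gene below was not tested.

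Among the higher genes were 8 for chitin-binding, chitin-digesting or cuticle proteins, a group put together after the values were seen. CG7298, which encodes a protein with chitin-binding domains, had the largest difference of the 82 genes: 10.22 on the formaldehyde array, against 5.06 on the benzene, 5.04 on the toluene and 5.41 on the control array, a difference of 5.17. The chitinase gene Cht4 stood at 11.60 with formaldehyde, against 7.48 with benzene, 7.55 with toluene and 7.68 in the control (17.5-fold). In both cases the formaldehyde array stood apart and the other 3 lay close together. Its neighbour Cht9, another chitinase gene, read 9.30 with formaldehyde and 7.86 with benzene, and 8.02 and 7.80 with toluene and in the control, a difference of 1.44.

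More genes for proteins with chitin-binding domains were past 2-fold. CG10140 was at 6.75 with formaldehyde and below background on the other arrays, at 3.87 with benzene, 3.85 with toluene and 3.93 in the control, which makes it at least 3.75-fold higher than with benzene. CG7017 was at 7.33 with formaldehyde, against 4.92 with benzene, barely above background there, 5.20 with toluene and 5.26 in the control (5.33-fold). For CG14957 the formaldehyde value of 9.99 stood above benzene at 8.29, with toluene at 9.09 and the control at 8.78 between them. CG32284 read 7.03 with formaldehyde and 5.64 with benzene, and its control value of 6.22 was again intermediate. In the list of chitinases, peritrophins and mucins, which does not hold the CG-numbered genes, Cht4 and Cht9 were the only 2 of 30 detected members past 2-fold, 18 were above 0 and the median was 0.03, near the 0.02 of all detected genes. Peritrophin-15a, for a peritrophic matrix protein, was at 11.17 with formaldehyde and 10.55 with benzene.

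Genes of the smooth septate junction were higher with formaldehyde. Of the membrane proteins known to build this junction in the fly midgut, the 4 with a detected gene here were all past 2-fold. The gene mesh was at 9.78 with formaldehyde, against 8.31 with benzene, 8.30 with toluene and 8.42 in the control. Ssk (snakeskin) was at 11.09, against 9.63 with benzene, 9.69 with toluene and 9.61 in the control. For Tsp2A, a tetraspanin gene, the values were 9.96 with formaldehyde and 8.50 with benzene, then 8.53 with toluene and 8.42 in the control. The differences of these 3 genes were alike, at 1.47, 1.46 and 1.46. The gene hoka followed at 10.32 with formaldehyde and 9.16 with benzene (1.15), with 9.17 and 9.15 on the other arrays. On each gene the benzene, toluene and control values lay within a narrow band and the formaldehyde value more than 2-fold above it. A second, dim probe set of mesh read 3.73 with formaldehyde and 3.72 with benzene, below background on both, and the mean of both probe sets of mesh gave 0.74, under 2-fold.

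A transcription factor of the gut, 1 midgut gene and a few adhesion and actin genes are given beside these. The transcription factor gene nub, which is active in gut enterocytes, was at 7.27 with formaldehyde and 6.46 with benzene, a difference of 0.81. With it, 5 of 5 detected members of the septate junction and enterocyte list were above 0 and the list median was 1.46. The gene mex1, named for its midgut expression, was at 9.64 with formaldehyde and 8.54 with benzene, with the control at 8.99. The integrin alpha gene scb had a difference of 1.06, and Itgbn, a beta integrin gene outside the 2-fold line, one of 0.90. Inx7, for an innexin of gap junctions, had one of 1.02 that came to 0.99 under quantile scaling and 1.00 under median centring, both short of 2-fold. The actin-branching subunit gene Arpc3B was at 8.55 with formaldehyde, against 7.21 with benzene, 7.31 with toluene and 7.21 in the control. Its relatives shifted less: Arpc4, Arpc2 and Arpc1 were at 0.38, 0.37 and 0.37, and the list of actin and Arp2/3 genes had 8 of 11 detected members above 0 and a median of 0.16. The actin genes Act87E, Act79B and Act88F were at -0.06, -0.02 and -0.01, where the list had 3 members below 0 and -0.06 was its lowest value. The array's own 4 actin control probe sets ran from 0.16 to 1.12, with a median of 0.82.

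Digestive enzyme genes lay more often below than above 0. Of 42 detected digestive enzyme genes 15 were above 0 and 27 below, the median was -0.20, and 2 were past 2-fold, both lower. Relative to the control the list median was 0.03 with formaldehyde and 0.15 with benzene. The trypsin gene epsilonTry was at 11.63 with formaldehyde, against 12.68 with benzene, 11.90 with toluene and 12.41 in the control. The Jonah protease gene Jon25Bii was at 11.60 with formaldehyde and 12.63 with benzene, with 12.05 and 12.36 with toluene and in the control. On these 2 genes formaldehyde was lowest of the 4 arrays and benzene highest. The starch- and sugar-digesting maltase gene Mal-A7 went the other way (0.90), where benzene at 9.33 was the low array and the control was at 10.35. CG12374, for a carboxypeptidase, was at 11.57 with formaldehyde and 12.77 with benzene, and at 11.67 and 11.41 with toluene and in the control.

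**Figure D2:**
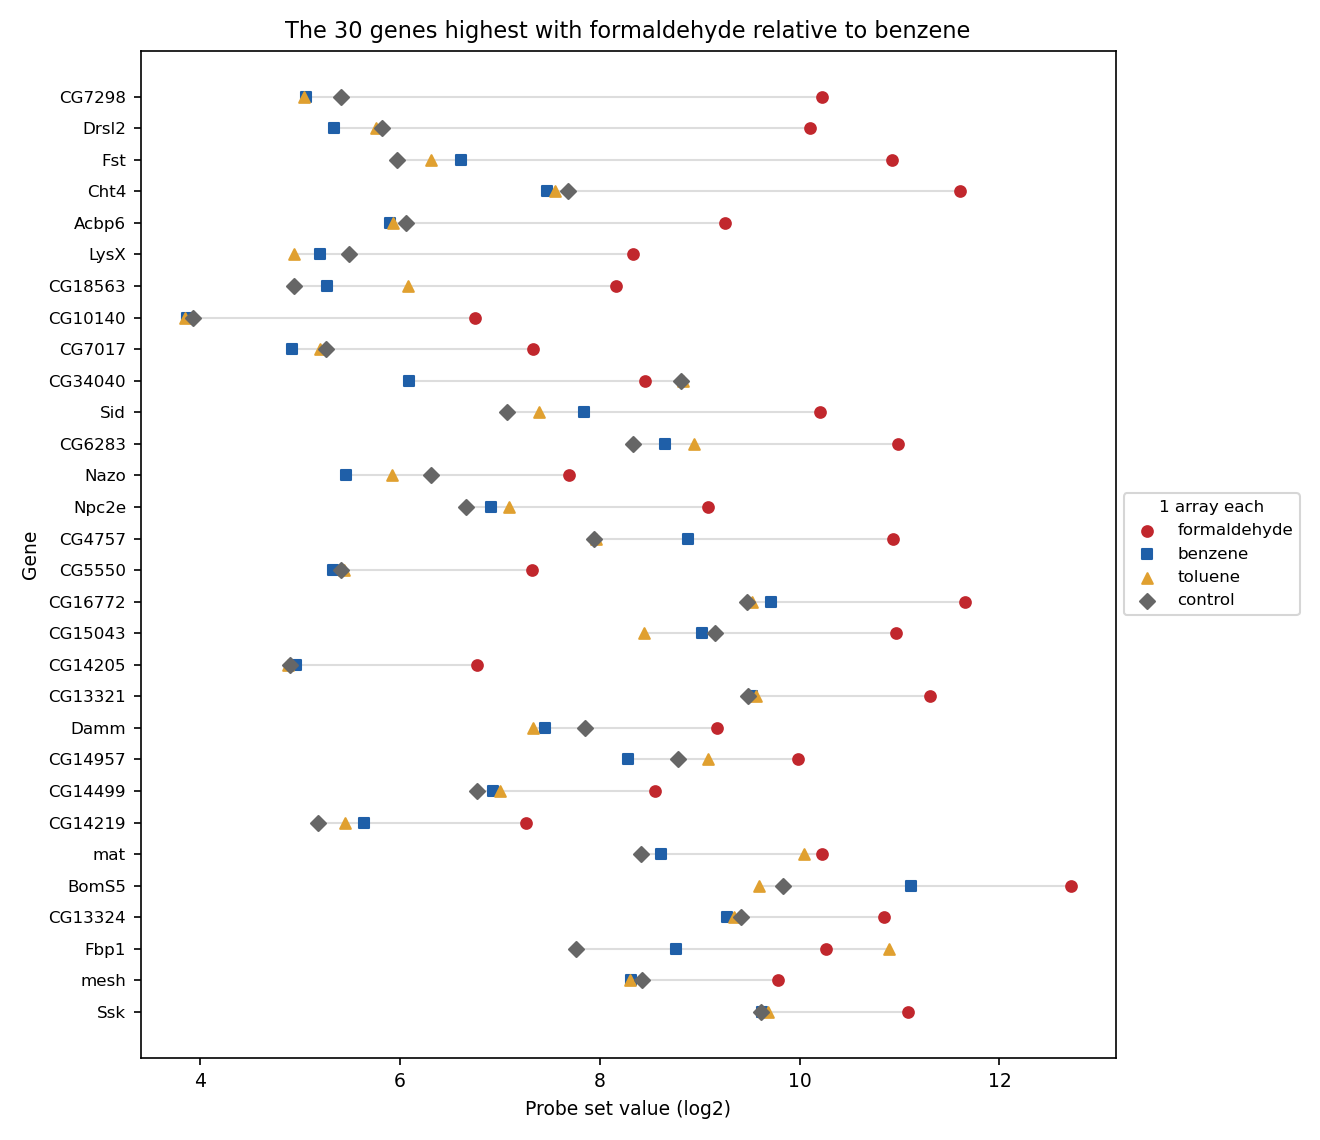
Log2 probe set values of the 30 genes with the largest difference in favour of formaldehyde, 1 row per gene and 1 marker per array. On most rows the red formaldehyde marker stands alone at the right, while CG34040 has its benzene marker alone at the left, and mat and Fbp1 have toluene close to or above formaldehyde.

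Immune genes were found on both sides of the comparison, 9 higher and 8 lower, a group put together after the values were seen. Among the lower genes were 4 of a list named here as antibacterial peptides of the Imd response. Which pathway induced its members in these flies was not tested. The immune-induced gene edin was at 5.32 with formaldehyde, against 9.32 with benzene, 5.04 with toluene and a control value of 4.39 that lay below background, a difference of -4.0. DptB, for a diptericin, was at 10.82 with formaldehyde, against 13.10 with benzene, 7.46 with toluene and 8.92 in the control (4.88-fold lower). Mtk, for metchnikowin, was at 12.14 with formaldehyde, against 13.49 with benzene, 6.41 with toluene and 10.02 in the control (2.56-fold lower). DptB and Mtk thus stood above the control with formaldehyde too, by 1.90 and 2.11, and the 2 arrays differed in how far. CecB, a cecropin gene, was at 6.48 with formaldehyde and 8.08 with benzene, and at 6.49 and 6.35 on the other arrays, so that only benzene stood apart. The defensin gene Def had a difference of -0.58, which made 5 of 5 detected members of the Imd-response peptide list negative, with a median of -1.60. That median came to -1.48 with no filter and -1.82 with the filter at the 75th percentile. Of the 14 genes written into the list, 6 had a probe set of 1 symbol. The values that called 4 of them are also those counted here. In addition edin, under the array median with formaldehyde, was kept through its benzene value.

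Recognition and feedback genes of the Imd response were also lower with formaldehyde. PGRP-SB1, for a secreted peptidoglycan recognition protein, was at 9.80 with formaldehyde, against 12.87 with benzene, 9.05 with toluene and 9.04 in the control (8.41-fold lower). PGRP-LB, which encodes an amidase that degrades peptidoglycan and dampens Imd signalling, was at 7.34 with formaldehyde and 8.58 with benzene, and at 7.06 and 7.05 on the other arrays. The inhibitor gene pirk was at 7.02 with formaldehyde, against 8.36 with benzene, 6.90 with toluene and 6.89 in the control. Both of these negative regulators were near the control with formaldehyde. Of 6 detected peptidoglycan recognition genes 5 were below 0, with a median of -0.66 (-1.01 with the filter at the 75th percentile), and PGRP-LA (0.19) was above it. The signalling genes themselves differed little. Among 16 detected members pirk alone was past 2-fold, the NF-kB gene Rel was at 10.26 with formaldehyde and 10.61 with benzene, and the list median was 0.06. Rel was at 9.46 with toluene and 9.29 in the control, so both vapours of this comparison stood above those arrays.

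Diedel completed the lower immune genes. It encodes a secreted regulator that holds back the Imd pathway, and it was at 6.54 with formaldehyde, against 8.77 with benzene, 7.62 with toluene and 6.49 in the control. CG12057, with no role given here, was at 6.57 with formaldehyde and 8.06 with benzene, and at 6.65 and 6.49 on the other arrays. The stress peptide gene TotC did not separate the vapours, at 12.59 with formaldehyde and 12.78 with benzene, against 10.52 in the control.

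**Figure D3:**
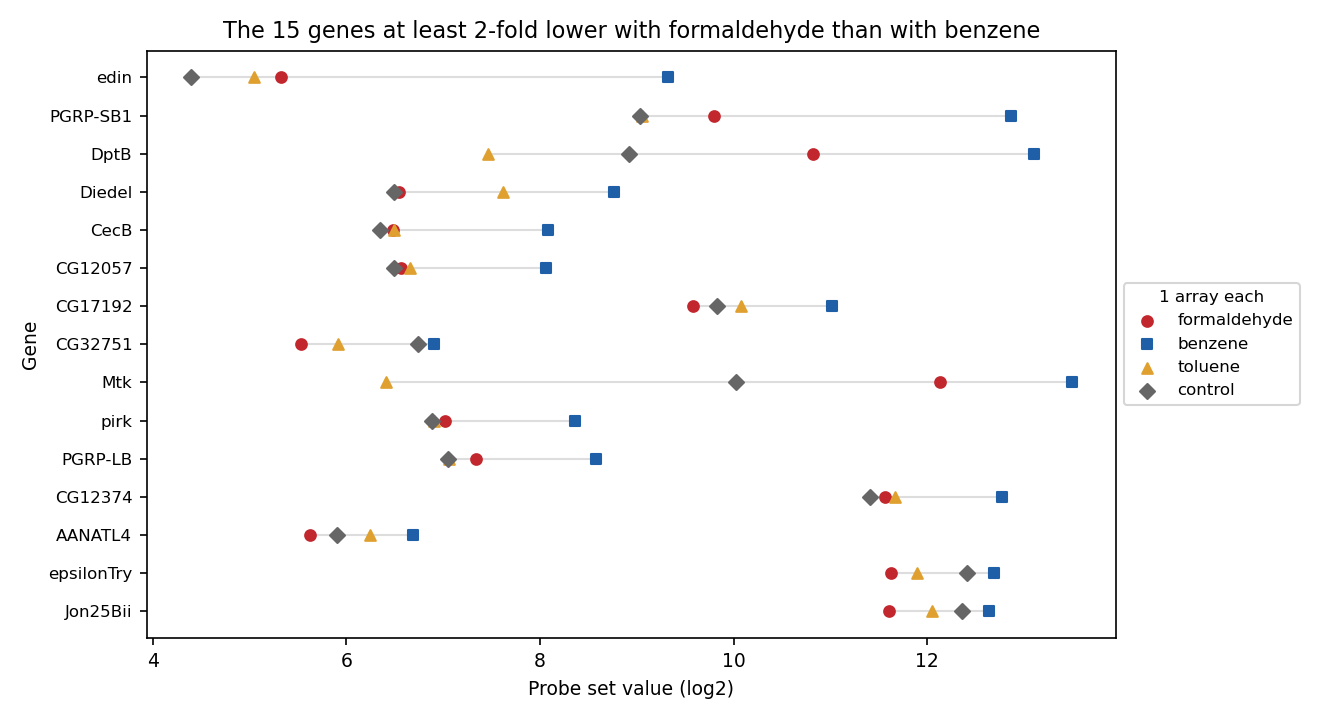
Log2 probe set values of the 15 genes at least 2-fold lower with formaldehyde than with benzene, 1 row per gene and 1 marker per array. The blue benzene marker is rightmost on every row. On most rows formaldehyde lies between benzene and the control, and it is farthest above the control on Mtk and DptB.

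Detected genes of the drosomycin family and of the bomanin list were all above 0, by unequal amounts. Drsl2, a drosomycin-like gene, was at 10.10 with formaldehyde, against 5.34 with benzene, 5.76 with toluene and 5.82 in the control (27.1-fold). Drs, the drosomycin gene, was at 13.29 with formaldehyde, against 11.84 with benzene, 10.83 with toluene and 11.11 in the control (2.73-fold). The related Drsl4 and Drsl5 differed by 0.14 and 0.10, so the 4 detected members of the family were far apart. The bomanin gene BomS5 was at 12.72 with formaldehyde, against 11.11 with benzene, 9.59 with toluene and 9.84 in the control (3.05-fold). Benzene stood above the control on Drs and BomS5 as well, by 0.73 and 1.27. All 8 detected genes of the bomanin and Toll-induced peptide list were above 0, BomS5 alone was past 2-fold, and the median was 0.70. BomT3 (0.78), BomBc2 (0.75) and BomBc3 (0.74) followed. Bbd (Bombardier), whose product is needed for bomanin activity, was at 13.72 with formaldehyde, 12.55 with benzene, 11.86 with toluene and 11.81 in the control.

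Of the protease genes detected in the Toll pathway list, SPE alone was past 2-fold. SPE, the enzyme that cuts the Toll ligand Spatzle into its active form, was at 11.44 with formaldehyde, against 10.36 with benzene, 10.34 with toluene and 10.13 in the control. The serpin gene nec, which restrains this cascade, was at 11.00 with formaldehyde and 10.22 with benzene, a difference of 0.78, and cact, for the cytoplasmic inhibitor of the pathway, had one of 0.46. The receptor gene Tl (0.37) and the kinase gene pll (0.45) were higher as well, whereas the ligand gene spz (0.05), the adaptor gene Myd88 (0.04) and the protease genes psh (0.02) and grass (-0.02) were nearly equal and the protease gene Hayan was at -0.20. In all 12 of 14 detected Toll pathway genes were above 0, against 54.7% of all detected genes. Their median was 0.12, or 0.46 with the filter at the 75th percentile and 0.07 under quantile scaling.

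Several genes of secreted proteases and protease inhibitors were past 2-fold. CG18563, a serine protease homologue gene, was at 8.16 with formaldehyde, against 5.27 with benzene, 6.08 with toluene and 4.94 in the control (7.41-fold). The Kunitz-type inhibitor genes CG16713 and CG16704 had differences of 1.32 and 1.16, and the serpin gene Spn88Eb one of 1.17. The trypsin-like genes CG8299 and CG11842 were at 1.08 and 1.03, and the second came to 1.00, just short of 2-fold, under quantile scaling. As a family the serpins showed no common direction, with 10 of 22 detected members above 0 and a median of -0.03.

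Further defence genes were highest with formaldehyde. LysX, for a lysozyme, was at 8.34 with formaldehyde, against 5.20 with benzene, 4.93 with toluene and 5.49 in the control (8.76-fold), while LysP, the other detected lysozyme gene, differed by 0.10. Nazo, an antiviral effector gene, was at 7.69 with formaldehyde, 5.46 with benzene, 5.92 with toluene and 6.31 in the control. CG5550, for a protein with a fibrinogen-like domain, was at 7.32 with formaldehyde, against 5.33 with benzene, 5.44 with toluene and 5.41 in the control. CG12780, of the beta-glucan binding family, had a difference of 1.04. Phagocytosis receptors of the Nimrod family were above 0 in 9 of 9 detected cases with a median of 0.36, led by NimC4 (9.19 with formaldehyde and 8.26 with benzene) and NimB3 (0.86), and none was past 2-fold. Markers of hemocytes, the blood cells that carry such receptors, had a median of 0.14, with Hml at 0.22 and PPO2 at -0.27.

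Grouped here are 3 higher genes, Fst, Sid and Damm, a set put together after the values were seen and so high by choice. Fst (Frost), a gene known for its induction during recovery from cold, was at 10.92 with formaldehyde, against 6.61 with benzene, 6.31 with toluene and 5.97 in the control (19.9-fold). Sid, for a stress-induced nuclease, was at 10.20 with formaldehyde, 7.84 with benzene, 7.39 with toluene and 7.07 in the control (5.14-fold). Damm, which encodes a caspase, was at 9.17 with formaldehyde, against 7.46 with benzene, 7.33 with toluene and 7.85 in the control (3.28-fold). On Fst and Sid benzene lay above the control by 0.63 and 0.77, and on Damm below it by a difference of -0.39. Heat shock and antioxidant genes had medians near 0 beside these. Heat shock proteins, without the Hsp70 genes, had a median of -0.02 over 15 detected members, led by Hsp27 at -0.13. Hsp68 read 7.92 with formaldehyde and 7.88 with benzene. The antioxidant list had a median of 0.03, with the peroxidase gene Irc at 0.80. In the DNA damage list 14 of 15 detected members were above 0, against 54.7% of all detected genes. Their median was 0.16, Gadd45 (0.48) and p53 (0.40) were among them, and none was past 2-fold.

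Lipid-handling genes were also among the higher ones. Acbp6, an acyl-CoA binding protein gene, was at 9.25 with formaldehyde, against 5.90 with benzene, 5.93 with toluene and 6.06 in the control (10.2-fold). The other 3 detected genes of its family lay between -0.11 and 0.05. Npc2e, of the sterol-binding Niemann-Pick type C2 family, was at 9.09 with formaldehyde, against 6.91 with benzene, 7.09 with toluene and 6.66 in the control (4.51-fold). Its relative Npc2f was at 8.70 with formaldehyde, 7.34 with benzene, 8.66 with toluene and 8.94 in the control, so that here benzene was the array apart. Among the 7 detected members of this family 3 were above 0 and the median was -0.02. The carboxylesterase gene CG4757 was at 10.93 with formaldehyde, against 8.88 with benzene, 7.96 with toluene and 7.94 in the control. The acyltransferase genes CG14205 and CG14219, which are adjacent in the genome, and the lipid phosphate phosphatase gene CG11425 (1.09) were also past 2-fold. CG14205 was at 6.77 with formaldehyde, against 4.96 with benzene, 4.88 with toluene and 4.90 in the control. CG14219 was at 7.26 with formaldehyde, 5.64 with benzene, 5.45 with toluene and 5.18 in the control.

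A pair of lipase genes went in opposite directions. CG6283 was at 10.98 with formaldehyde, against 8.66 with benzene, 8.94 with toluene and 8.33 in the control, a difference of 2.32. CG17192 was at 9.58 with formaldehyde, against 11.01 with benzene, 10.08 with toluene and 9.83 in the control (2.69-fold lower than with benzene). They belong to the same enzyme family and lie near each other with 1 gene between them. Physical closeness was found for other members too. Of the 82 genes 13 (15.9%) had another of them among the 3 nearest protein-coding genes on either side, against 3.12% of 8105 detected genes that could be placed. The pairs were CG7298 with CG7017 and with Ssk, Cht4 with Cht9, CG14957 with CG32284, CG14205 with CG14219, CG13321 with CG44251, and the lipases, and in all but the last both genes were higher. Whether probe sets of neighbouring paralogs take up each other's transcripts was not tested.

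Fat body storage genes separated formaldehyde from benzene, but toluene was higher still. Fbp1 was at 10.26 with formaldehyde, 8.76 with benzene, 10.90 with toluene and 7.77 in the control, and Fbp2 at 10.17, 8.78, 10.95 and 7.75 on the same arrays. The larval serum protein gene Lsp2 had a difference of 0.89, and fit, a feeding-related gene, one of -0.34. The list median was 1.14 over 4 detected members. Cpr49Ac, a cuticle protein gene, was at 7.14 with formaldehyde, 6.03 with benzene, 7.84 with toluene and 5.52 in the control, and was the only 1 of 34 detected cuticle genes past 2-fold. That family had 25 members below 0 and a median of -0.09. The gene mat was at 10.22 with formaldehyde and 8.61 with benzene, with toluene at 10.04 and the control at 8.41. Nutrient genes had a median of 0.04, led by the insulin receptor gene InR (0.91), the glucosidase gene tobi (0.74) and Pepck1 (0.73), of gluconeogenesis.

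Genes that dispose of foreign chemicals differed little between the vapours. Fdh, for formaldehyde dehydrogenase, was at 9.99 with formaldehyde, against 9.93 with benzene, 10.04 with toluene and 9.99 in the control. The one-carbon and aldehyde list had 9 of 13 detected members above 0 and a median of 0.04. Sardh, for sarcosine dehydrogenase, led it with 7.59 with formaldehyde, 6.70 with benzene, 7.26 with toluene and 6.81 in the control. Of 59 detected cytochrome P450 genes 32 were above 0, the median was 0.02, and Cyp4e3 alone was past 2-fold. Cyp4e3 was at 9.21 with formaldehyde and 7.94 with benzene, and at 9.18 and 9.43 on the toluene and control arrays, so the low value was that of benzene. The median was 0.03 for glutathione S-transferases, 18 of 31 of them positive, and for UDP-glycosyltransferases -0.06, where 5 of 18 were positive. Single genes commonly used as markers of chemical exposure, GstD1 and Cyp6g1, differed by 0.11 and 0.07.

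The values on the control and toluene arrays, which entered the choice of probe set but not the difference, are set beside those of formaldehyde and benzene. Each of these comparisons with the control uses the same control array, and the formaldehyde and benzene values are those that chose the genes, so the counts are a description and nothing is read from their size. For 48 of the 67 higher genes benzene lay within 0.5 log2 units of the control, and for 56 formaldehyde was at least 2-fold above it (1.08% of all detected genes). The share of all detected genes within 0.5 of the control is not given. Between formaldehyde and benzene 96.9% of them lay that close. For 49 of the 67 formaldehyde was at least 2-fold above each of the other 3 arrays (for formaldehyde over toluene the share of all detected genes was 0.798%). The share of all detected genes above all 3 at once is not given. Only 4 of the higher genes had formaldehyde within 0.5 of the control: CG34040, Npc2f, CG18404 and Cyp4e3. CG34040 read 8.46 with formaldehyde, 6.09 with benzene, 8.83 with toluene and 8.82 in the control, and these 4 genes were all at least 2-fold lower with benzene than in the control, as were 0.0984% of all detected genes. At a second probe set CG34040 gave 1.58 in place of 2.37. For the remaining 15 neither array lay within 0.5 of the control.

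For 8 of the 15 lower genes formaldehyde lay within 0.5 of the control, again with no share of all detected genes given. For 11 benzene was at least 2-fold above the control (0.332% of all detected genes). For 10 of the 15 benzene was at least 2-fold above each of the other 3 arrays (for benzene over toluene the share of all detected genes was 0.197%). Here too the share above all 3 at once is not given. CG32751 was the only 1 of the 15 at least 2-fold below the control with formaldehyde (0.0367% of all detected genes), at 5.53, against 6.90 with benzene, 5.92 with toluene and 6.74 in the control. AANATL4, named as an arylalkylamine N-acetyltransferase-like gene, was at 5.62 with formaldehyde and 6.69 with benzene, and at 6.25 with toluene and 5.91 in the control.

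**Figure D4:**
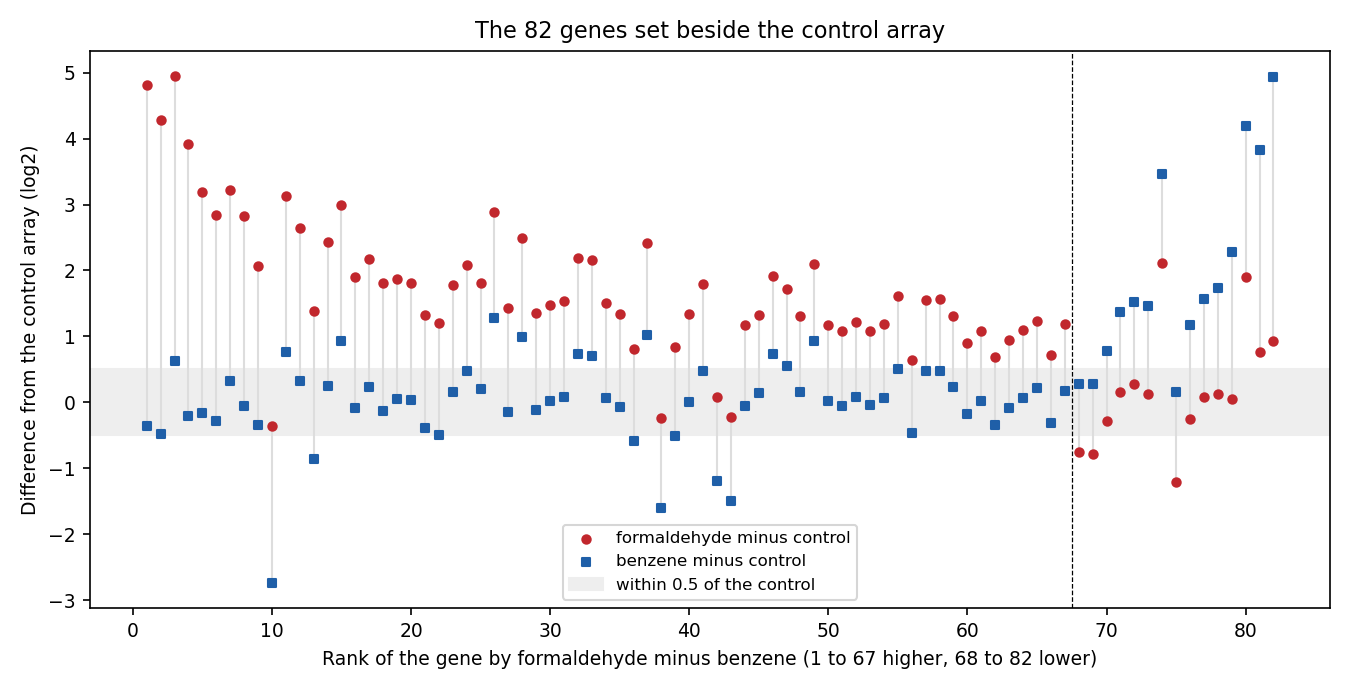
Differences from the control array, in log2 units, for the 82 genes ranked by formaldehyde minus benzene, with red circles for formaldehyde minus control and blue squares for benzene minus control. Most blue squares of the 67 higher genes lie in the grey band within 0.5 of the control, and among the 15 lower genes the squares lie above the circles.

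No role is given here for 24 of the 82 genes, 22 of them higher. The highest of these after CG34040 were CG16772, at 11.65 with formaldehyde, 9.71 with benzene, 9.52 with toluene and 9.47 in the control, and CG15043, at 10.96 with formaldehyde, 9.02 with benzene, 8.44 with toluene and 9.16 in the control. CG13321 was at 11.30 with formaldehyde, 9.52 with benzene, 9.56 with toluene and 9.49 in the control. CG13324 was at 10.84 with formaldehyde, 9.27 with benzene, 9.34 with toluene and 9.41 in the control, and CG44251 had a difference of 1.12, with 1.37 at its other probe set. On each of these 3 the benzene, toluene and control values were nearly equal. CG14499 was at 8.55 with formaldehyde, 6.93 with benzene, 6.999 with toluene and 6.77 in the control, and CG9616 (1.44) and CG9568 (1.41) followed. CG30026 was at 10.09 with formaldehyde, 8.94 with benzene and 8.19 with toluene, with benzene above the control by 0.94. The other higher genes with no role, besides mat, had differences between 1.00 and 1.34, and the lower ones, CG12057 and CG32751, had -1.49 and -1.37.

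Tissue lists outside immunity and the gut differed little. Testis genes were below 0 in 15 of 18 detected cases with a median of -0.07, and accessory gland genes in 18 of 20 with a median of -0.13, where 54.7% of all detected genes were above 0. The largest single values were 0.33 for the spermatid gene fzo and -0.30 for Acp53C14c. Muscle genes had a median of -0.005, neuron genes 0.05, Malpighian tubule genes -0.02 and phototransduction genes 0.02. Odorant binding protein genes had a median of -0.05 and Obp19a a difference of -0.62. Cytosolic ribosomal protein, oxidative phosphorylation, V-ATPase and proteasome genes had medians of 0.04, 0.01, 0.01 and -0.02. Metallothionein, ferritin and transferrin genes had 8 of 11 members above 0 and a median of 0.15. In the ovary and yolk list Yp3 alone was detected, with a difference of 0.05. The remaining lists were JNK pathway genes (0.21), thioester and Gram-negative binding proteins (0.23), circadian genes (0.10), ecdysone response genes (0.07), melanisation and clotting genes (0.02), juvenile hormone genes (-0.13, but 0.06 with no filter) and JAK/STAT genes (-0.08), of which Diedel alone was past 2-fold.

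**Figure D5:**
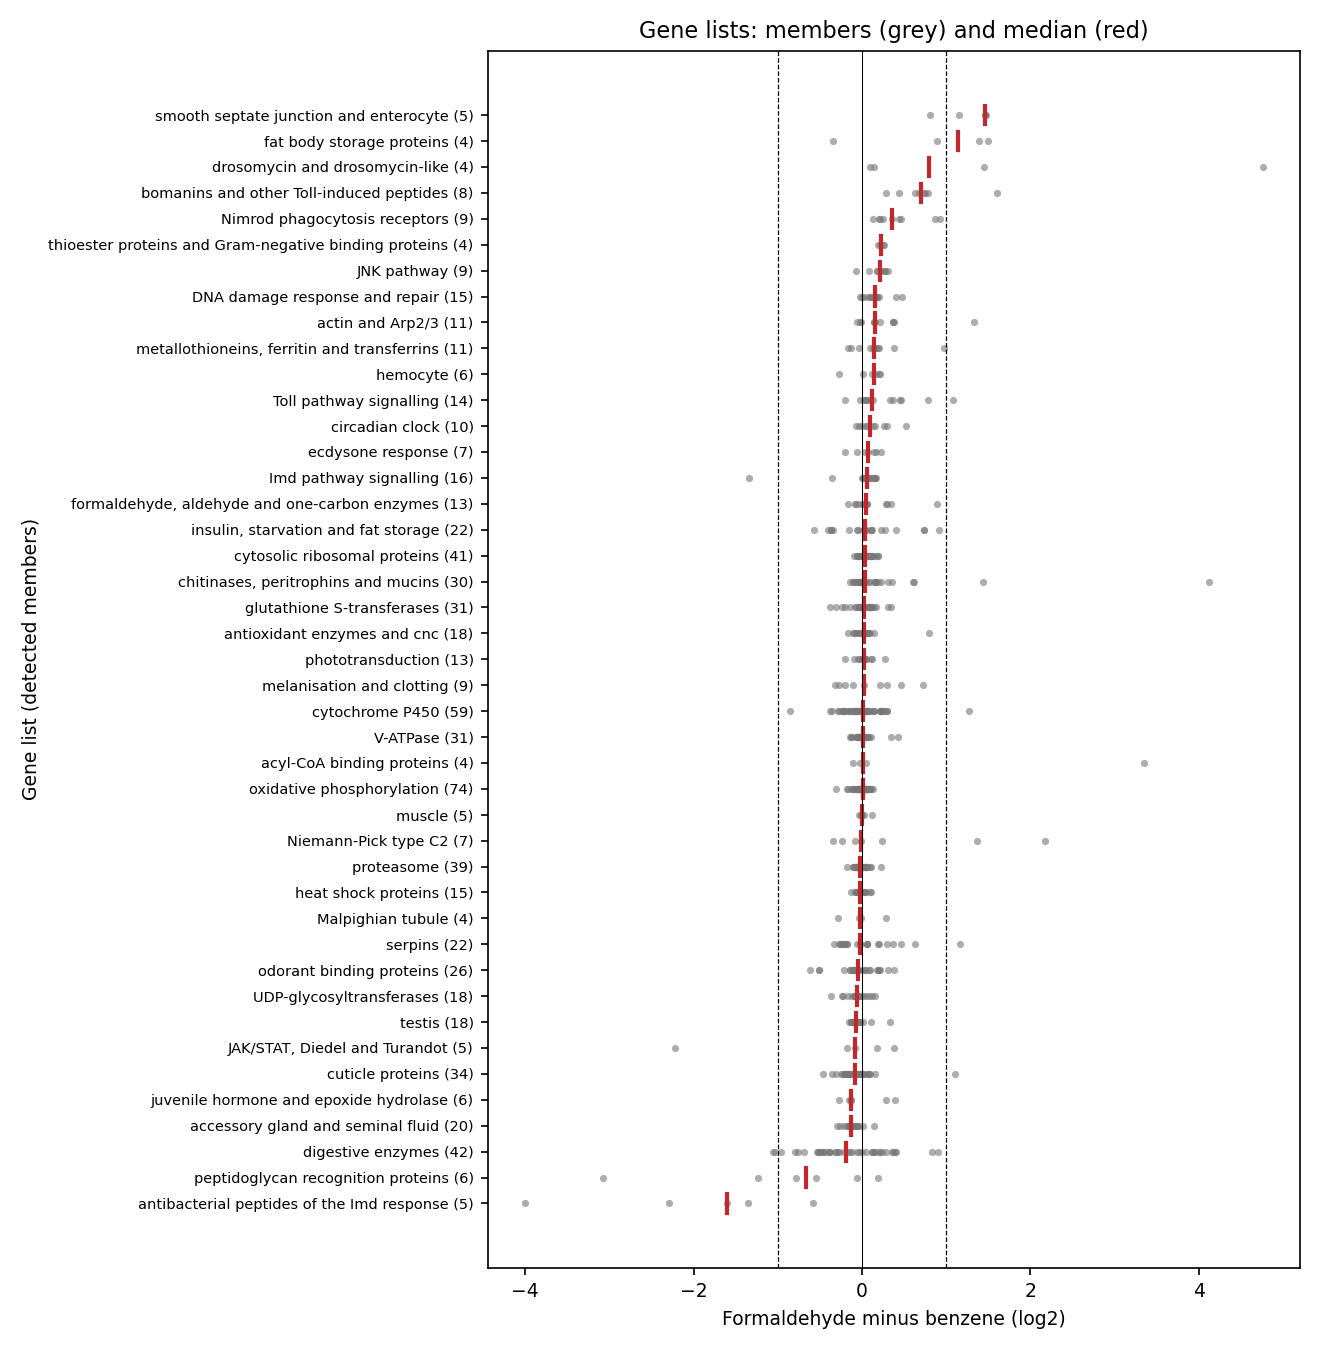
Formaldehyde minus benzene, in log2 units, for the detected members (grey points) of each gene list with at least 4 detected members, with the list median as a red bar and dashed lines at 2-fold. The smooth septate junction list stands highest with a median of 1.46 and the Imd-response peptide list lowest with -1.60, while most lists centre near 0.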

How the data were processed

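Whole-genome arrays of 4 groups of male flies, 1 array each, were analysed from the log2 probe set values deposited by the authors. RNA was labelled from 300 ng by a 3'-primed Affymetrix method, per the labels. Per the submitters' processing notes, the software was Affymetrix Expression Console 1.1, and MAS5 and RMA are both named without saying which made the table. No genome build is stated. The values had near-equal quartiles on the 4 arrays, so overall shifts in RNA amount cannot be seen, and ratios of dim probe sets may be compressed. Precision is limited by the number of arrays.

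Of 18952 probe sets, 183 were array controls. Of the others, 13646 had 1 gene symbol in the platform annotation, 402 had several and 4721 had none listed. For each gene the probe set brightest on average across the 4 arrays was used (11981 genes, 11892 of them matched by identifier in RefSeq Release 6, which was used for names and gene order). Each array's background was set at the 95th percentile over 20 probe sets of transcripts that were not spiked in. It replaced a lower value only in the bound of at least 3.75-fold given for CG10140. All differences, medians and counts use the values as deposited, also where they lie below background. The size rule was 2-fold. The calling step was tested on simulated data. Python 3.11.15, pandas 2.3.3 and matplotlib 3.10.9 were used.

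The comparison, the members and the 46 gene lists were chosen with earlier results of these data known. Genes could be named if past 2-fold, with values on all arrays for the 30 highest and the lower ones, or if among the 3 members of a list that differed most, and fixed genes such as Fdh are given whatever their value. Roles of the genes past 2-fold were assigned after their values were seen, as were some other names: Itgbn, for an integrin, and further list members named beside the leading 3. List members with no probe set of 1 symbol are not analysed here, among them the Hsp70 genes, Adh, DptA and AttA.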

Additional observations from a re-analysis of the deposited data

Results flagged for a closer look

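In 3 of the 82 genes the formaldehyde and benzene arrays lay on opposite sides of the control by more than 0.5 log2 units each. The difference between the exposures was not tested, since each has 1 array. Nazo, the antiviral effector gene, was at 1.38 relative to the control with formaldehyde and -0.85 with benzene. CG10912, of no role given here, was at 0.84 with formaldehyde and -0.50 with benzene. CG32284, with chitin-binding domains, was at 0.81 with formaldehyde and -0.58 with benzene.

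Probe sets without a unique gene name, which the comparison leaves out, held further large differences. Of 749 detected probe sets with no symbol listed, 16 were past 2-fold, between -4.41 and 4.08. Of 276 with several symbols, 3 were past 2-fold, all higher with formaldehyde.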

How the results depend on the processing

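No paired analysis was possible because each group has 1 array. The counts of 67 higher and 15 lower genes came to 75 and 15 with no filter on dim probe sets, 55 and 11 with the filter at the 75th percentile, 62 and 16 under quantile scaling, 64 and 15 under median centring, and 65 and 15 with the mean of all probe sets of a gene. A 1.5-fold rule gave 146 and 40 genes and a 3-fold rule 26 and 5. None of the 82 genes turned direction in the 5 alternatives that kept the 2-fold rule. Of 394 values under these, 384 stayed past 2-fold, and 7 genes fell short at least once: CG11686, CG11842, CG34136, CG5011, Inx7, CG9380 and mesh. Of 228 list medians under these alternatives 19 moved by over 0.1, nearly all with another filter, which changes the members. With no filter the medians came to 0.14 (drosomycins), 0.10 (lysozymes), 0.23 (Nimrod), 0.01 (hemocyte), 0.06 (juvenile hormone) and -0.14 (ovary and yolk). Those of the Imd-response peptides and the peptidoglycan recognition genes came to -1.48 and -0.55. With the filter at the 75th percentile the medians came to 0.46 (Toll), -1.01 (peptidoglycan recognition), 0.66 (Nimrod), 0.10 (lysozymes), 0.30 (melanisation), 0.11 (Niemann-Pick type C2), -0.06 (ecdysone) and -0.16 (Malpighian tubule). In that setting the Imd-response peptides were at -1.82 and fat body storage genes at 1.39. The mean of all probe sets of a gene gave 1.31 for the smooth septate junction and enterocyte list. Medians within 0.05 of 0 have no settled sign: those of cytochrome P450 and V-ATPase genes, among others, turned under both scalings. The filter keeps a gene through its higher value. A single array per group leaves every difference without an error.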

Other observations

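Among the probe sets with no symbol listed, the lowest 2 stood highest on the benzene array and next highest with formaldehyde, as DptB did. The lowest was at 5.13 with formaldehyde, against 9.54 with benzene, 3.45 with toluene and 3.73 in the control, both below background. The next lowest was at 10.80 with formaldehyde, 13.62 with benzene, 7.82 with toluene and 9.02 in the control. On the other side the highest was at 10.50 with formaldehyde, against 6.42 with benzene, 4.56 with toluene and 4.83 in the control, both below background.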
